A study of Drosophila melanogaster with 9 samples.

Results

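The genes described here are 32 *Drosophila melanogaster* genes of the germline and of the piRNA pathway, chosen by name for their known roles. Of these, 31 had transcripts in the quantification files and all 31 passed the filter on low counts, among 10870 genes tested and 14077 genes with a transcript in the files; *cup* was not analysed here. They fall into 5 groups. The piRNA factors that ovarian somatic cells are known to use are 5 (*piwi*, *zuc*, *armi*, *fs(1)Yb*, *vret*). Another 8 act in the nuage or the ping-pong cycle of germ cells (*aub*, *AGO3*, *vas*, *spn-E*, *krimp*, *tej*, *qin*, *tud*), and 3 encode the Rhino complex (*rhi*, *del*, *cuff*). The maternal determinants are 5 (*nanos*, *osk*, *bcd*, *grk*, *pgc*), and 10 bind, move or silence germline mRNAs or govern germ cell development (*orb*, *bam*, *exu*, *stau*, *swa*, *pum*, *BicD*, *egl*, *me31B*, *otu*). The file annotation names *nos* as *nanos*, which is not *Nos*, the nitric oxide synthase gene.

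piRNAs are small RNAs that guide Piwi-family proteins to transposon transcripts. In the germline, Aub and AGO3 cut transposon and piRNA precursor RNAs in turn in the nuage, a perinuclear body, and Rhino marks the clusters from which most germline piRNAs arise; follicle cells use a simpler pathway with Piwi, Armi, Yb and Zuc and without ping-pong. In the same egg chamber, nurse cells make the mRNAs of *bcd*, *osk*, *nanos* and *pgc* and pass them to the oocyte, where they pattern the embryo and found its germline. Most of the genes listed are therefore known from germ cells, which neither of the drivers used here is described to mark.

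The libraries are TRAP-seq, in which a GFP-tagged large-subunit ribosomal protein is expressed in chosen cells and the mRNA bound to tagged ribosomes is immunoprecipitated and sequenced. All 9 libraries carried *UAS-RpL10Ab-GFP*, and each, by the study's account a biological replicate, was made from thoraxes and abdomens of about 100 flies. Fed AFCs (all follicle cells, n = 3) and starved AFCs (n = 3) had the *GR1-GAL4* driver, and fed SFCs (stretch follicle cells, which enclose the nurse cells, n = 3) had *PG150-GAL4*. Fed flies spent 3 days at 25 °C on standard food and then 2 days with yeast paste, while starved flies were moved to apple juice agar without yeast for 16 to 20 hours.

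The sample labels call the *GR1* libraries main body follicle cells, while the study's methods place *GR1* in every follicle cell from stage 3 on, SFCs included, and *PG150* in centripetal cells as well as SFCs. Fed AFC libraries can therefore hold SFC mRNA. Because driver and cell type changed together, they cannot be told apart. No starved SFC group and no input or untagged library was analysed here, so the share of reads from untagged germline ribosomes was not tested.

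Total reads ranged from 30551253 to 45910215 per library, and reads on 21 rRNA pseudogenes took 1.19% in fed AFC 2 to 36.3% in fed SFC 2. Fed AFC 1 had at least 10 reads on 13253 genes, against 9273 to 10872 in the other 8 libraries. The follicle cell markers *tj* and *Fas3* were read at 9.28 ± 4.94 and 1.77 ± 0.385 CPM per kilobase in fed AFCs (SD, n = 3). Means of the other listed follicle cell markers there spread widely. *Yp1*, *Yp2*, *Yp3*, *Vm26Aa* and *Vm26Ab* were at 7454, 4102, 6052, 3178 and 1577 CPM per kilobase, and *Vml*, *Sox14* and *br* at 65.7, 30.6 and 2.39. In fed SFCs against fed AFCs, 4 of 10 follicle cell markers were called lower (*Vm26Aa*, *Vm26Ab*, *Vml* and *Sox14*). Over all genes, 1.78% were called lower and 1.21% higher. There 5 of 6 midgut markers were called lower and 5 of 7 muscle markers higher. *Yp1*, *Yp2* and *Yp3* had positive log2 fold changes of 0.60, 0.61 and 0.86 and were not called. The summed follicle cell markers were at 17944 to 28150 CPM in fed and 11719 to 28075 in starved AFCs, and 20288 to 52182 in fed SFCs. The 11 SFC markers had a median log2 fold change of 0.14 in fed SFCs against fed AFCs. Of these, 1 was higher at an unadjusted p below 0.05 and 0 were called by edgeR or DESeq2. Summed fat body markers were at 307 to 1158 CPM in fed and 251 to 832 in starved AFCs, and 921 to 2230.1 in fed SFCs. By the study's account, *GR1* is also weakly active in the gut and *PG150* in the Malpighian tubules. Summed midgut markers were at 3917 to 6776 CPM in fed and 2945 to 4078 in starved AFCs, and 1161 to 2157 in fed SFCs. In starved against fed AFCs, 3 of 6 midgut markers were called lower, beside 0.221% of all genes. Of the 10 follicle cell and 7 muscle markers, 0 were called with starvation. Summed Malpighian tubule markers were at 236 to 459 CPM in fed and 288 to 707 in starved AFCs, and 478 to 617 in fed SFCs. The summed muscle markers stood at 108 to 218 CPM in fed and 129 to 244 in starved AFCs, and 393 to 892 in fed SFCs. *RpL10Ab*, the gene of the tagged protein, was at 3399 ± 841 CPM in fed and 2851 ± 460.4 in starved AFCs, and 1816 ± 595 in fed SFCs (SD, n = 3). The part of these shifts in the results below was not tested. In such bulk samples, fewer cells of a type and less RNA per cell cannot be told apart.

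Levels are given as CPM, reads scaled to a common library size, and levels of different genes are compared per kilobase of effective transcript length. Messages of germline genes were read in every library. The germline-defining genes *vas*, *aub*, *osk*, *nanos* and *bcd* had at least 2288, 1269, 12917, 2066 and 458 reads in each of the 9 libraries. The 31 genes took 0.264% to 0.465% of scaled reads in fed and 0.290% to 0.316% in starved AFCs, and 0.351% to 0.466% in fed SFCs. Together *me31B*, *osk*, *pgc* and *exu* held 55.1% to 67.7% of that sum. In each group these 4 were the listed genes among the top 10% of all genes tested per kilobase.

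*pgc*, whose small protein represses transcription in the embryonic germ line, had the highest level of the 31 in every group, at 776 ± 257 CPM per kilobase in fed and 605 ± 88.2 in starved AFCs, and 940.3 ± 179 in fed SFCs (SD, n = 3). *me31B*, a DEAD-box helicase of silenced mRNA particles, followed at 649 ± 231, 517 ± 61.2 and 607 ± 20.1. The ranges of these neighbours overlapped in fed and starved AFCs and were separate in fed SFCs. At the other end stood *fs(1)Yb*, at 0.924 ± 0.628, 0.466 ± 0.133 and 0.120 ± 0.112 CPM per kilobase. Its product, Yb, assembles the somatic piRNA body, so the lowest of the 31 mean levels belonged to the factor best known as specific to ovarian somatic cells. The range of *fs(1)Yb* overlapped that of *qin*, its neighbour in rank, in fed and starved AFCs and was separate in fed SFCs.

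The median level of the 31 genes was 15.9 CPM per kilobase in fed and 13.8 in starved AFCs, and 18.3 in fed SFCs, against 11.4, 11.8 and 13.5 over all genes tested. In these groups 18, 17 and 18 of the 31 lay above the median of all genes. In the TPM that the authors deposited, the order of the fed and starved AFC medians was reversed. *aub*, known from germ cells, was at 23.1 ± 4.76 CPM per kilobase in fed AFCs and *piwi*, known from germ and somatic cells, at 15.9 ± 3.40. Ranked by level, the genes formed a near continuum. Of 30 pairs of neighbours in rank, 5 in fed and 6 in starved AFCs, and 5 in fed SFCs had ranges over replicates that did not overlap, among them *me31B* and *exu* in both AFC groups.

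**Figure D1:**
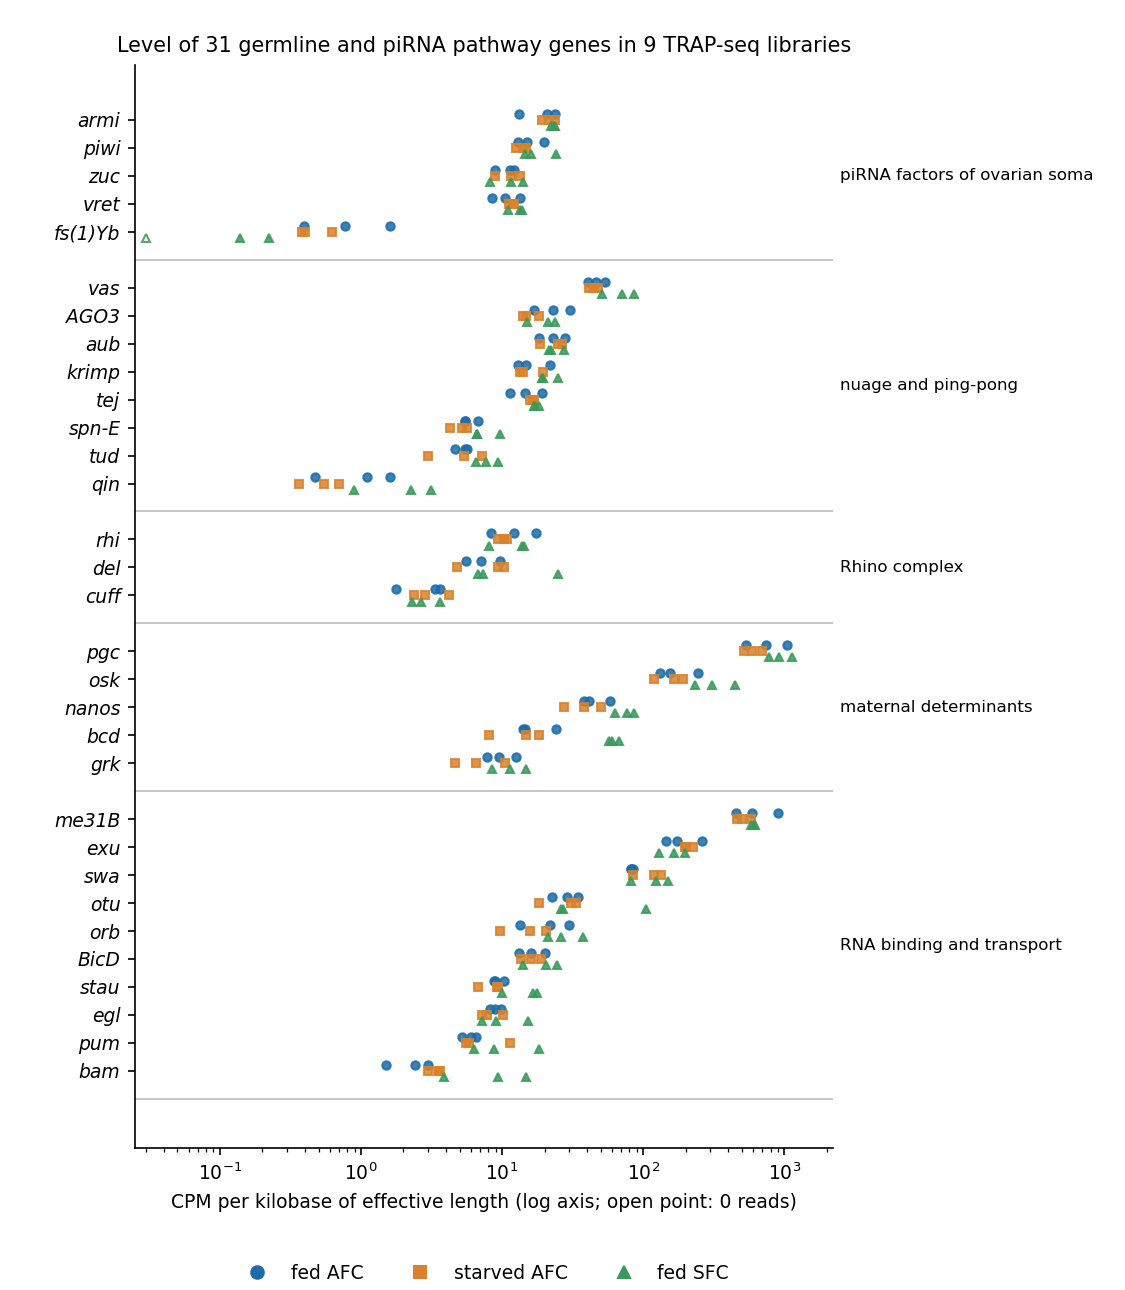
Level of each of the 31 genes in each library, in CPM per kilobase of effective length on a log axis, grouped by role; circles are fed AFC, squares starved AFC and triangles fed SFC libraries, and the open triangle marks a library with 0 reads. *pgc* has the highest and *fs(1)Yb* the lowest mean in each group, and *bcd* is the maternal determinant whose 3 SFC points lie clear of the 6 AFC points by the widest gap.

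To ask whether these messages differed between SFCs and AFCs or with starvation, each gene was read out of an edgeR quasi-likelihood fit over all 9 libraries, with Benjamini-Hochberg adjustment over all 10870 genes and a threshold of 0.05. In fed SFCs against fed AFCs, 1 of the 31 genes passed, *bcd*, which was higher; the rate over all genes was 2.99%, with 1.21% higher and 1.78% lower, so a count of 1 in 31 is near the background. DESeq2 called *bcd* and *bam*, 2 of 31, against 9.79% of all genes. The groups did not overlap for 4 of the 31, *tud*, *bcd* and *bam* higher and *fs(1)Yb* lower, against 20.9% of all genes, 9.12% higher and 11.8% lower. In starved against fed AFCs, 0 of 31 passed, against 0.221% of all genes, and 1 of 31 did so at an unadjusted p below 0.05 (*AGO3*, lower), against 5.02% of all genes. DESeq2, which called 0.902% of all genes, and limma-voom also called 0 of 31 there. The groups did not overlap for *bam* alone, which was higher, against 12.1% of all genes, 6.17% in that direction.

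The direction of the estimates was less even than the calls. In fed SFCs against fed AFCs, 25 of 31 log2 fold changes were positive (80.6%), with a median of 0.24, while 44.1% of all genes were positive, with a median of -0.10. That median of all genes depended on the setting. It was -0.0002 over genes with at least 50 counts in 3 libraries and 0.05 without fed AFC 1. At an unadjusted p below 0.05, 5 of the 31 were higher (*bcd*, *bam*, *stau*, *osk*, *vas*), against 9.06% of all genes, and 1 lower (*fs(1)Yb*), against 10.6%, together close to the 19.7% of all genes. In starved against fed AFCs, 11 of 31 were positive (35.5%) and the median was -0.09, the same as for all genes at 2 decimals. With the same 2 settings, the median of all genes there was -0.03 and 0.04. These comparisons share the fed AFC libraries, and the genes share libraries, so the counts of direction are a description.

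Fed SFCs against starved AFCs differ in driver, cell type and diet at once, which cannot be told apart. There again *bcd* passed (1 of 31, against 2.22% of all genes, 1.24% in that direction), with 9 of 31 higher and 0 lower at an unadjusted p below 0.05, against 9.21% of all genes higher and 8.73% lower. The groups did not overlap for 13 of 31 genes, 11 higher and 2 lower in SFCs, against 24.6% of all genes, 11.2% higher and 13.5% lower. DESeq2 called 5 of 31, *bcd*, *qin*, *nanos*, *osk* and *stau*, against 8.21% of all genes. The median log2 fold change was 0.41 for the 31 and -0.02 for all genes.

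**Figure D2:**
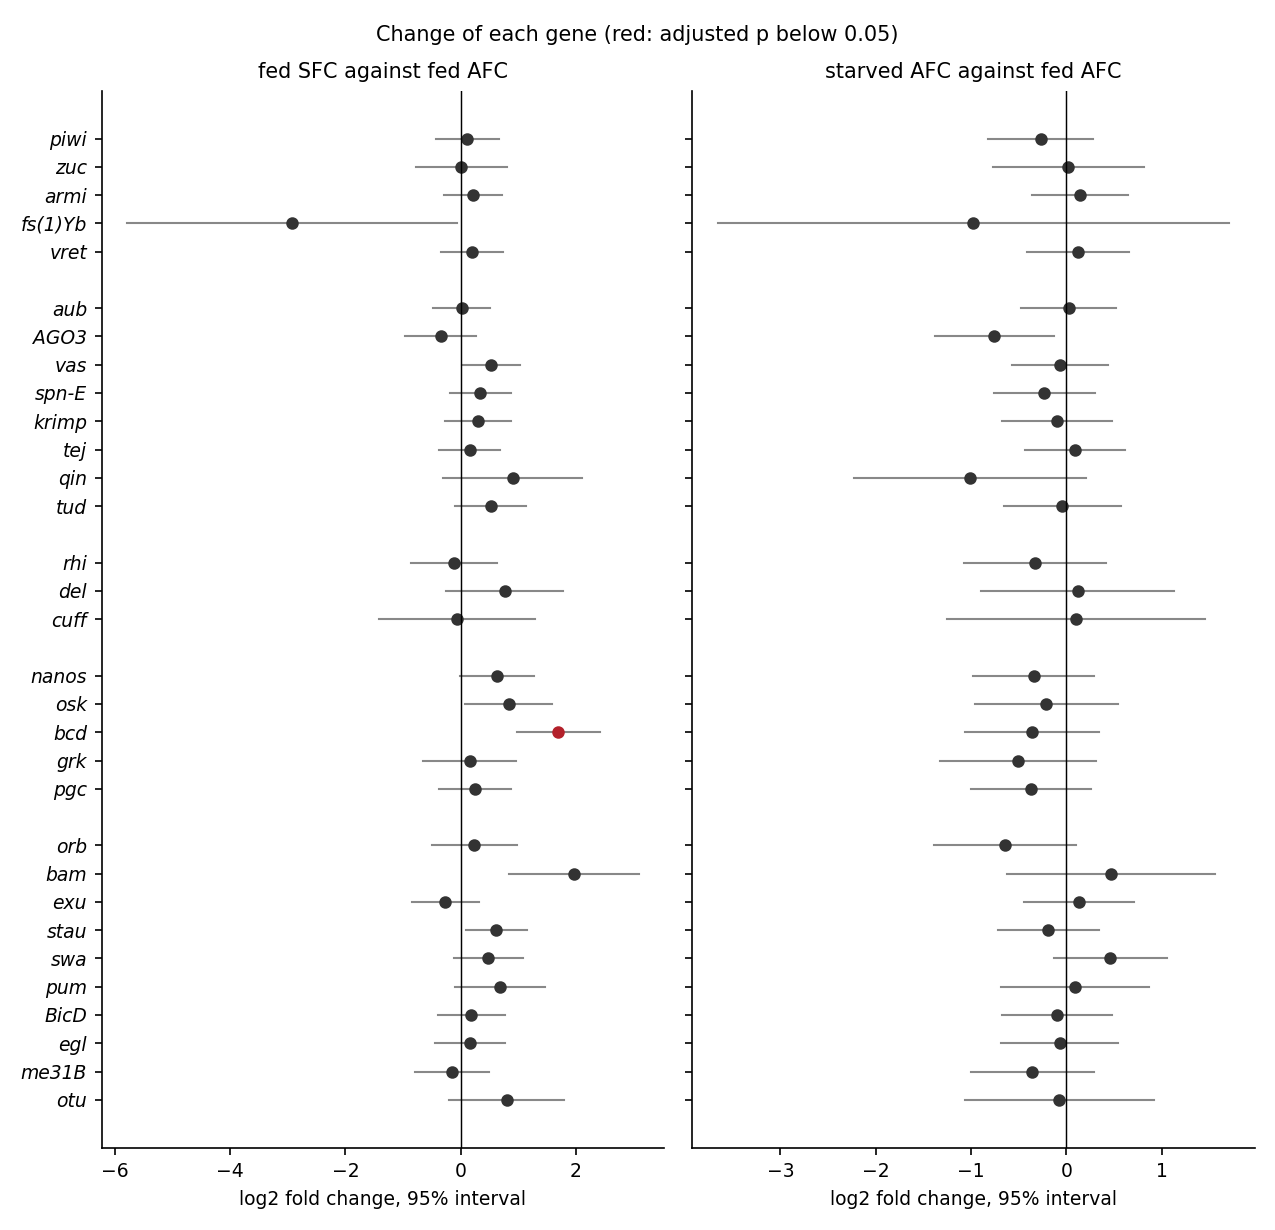
Log2 fold change of each gene with its 95% interval, for fed SFC against fed AFC (left) and starved AFC against fed AFC (right), ordered by role. On the left *bcd* is the red point, with an adjusted p below 0.05, and 25 of 31 points lie above 0; on the right 20 of 31 lie below 0 and no point is red.

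*bcd* encodes the anterior determinant Bicoid, and its mRNA is made in nurse cells and anchored at the anterior of the oocyte. Its level was 24.7, 36.4 and 19.5 CPM in the fed AFC libraries, 27.0, 24.1 and 11.7 in the starved AFC libraries and 103, 74.4 and 83.1 in the fed SFC libraries. Every SFC library was above every AFC library. *bcd* was 3.23-fold higher in fed SFCs than in fed AFCs (95% interval 1.96 to 5.32), a log2 fold change of 1.69 (SE 0.33, edgeR adjusted p = 0.0188). Starved and fed AFCs overlapped, at a log2 fold change of -0.36 (95% interval -1.06 to 0.34, edgeR adjusted p = 0.982). Against starved AFCs, the SFC level was 4.15-fold higher (95% interval 2.502 to 6.87, edgeR adjusted p = 0.0091).

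Each of the 9 libraries left out in turn gave a log2 fold change of 1.54 to 2.02 for *bcd* in fed SFCs against fed AFCs. The call was lost without fed AFC 3, at 1.54 and an edgeR adjusted p of 0.103. Against starved AFCs it held in all 9 fits, with edgeR adjusted p-values from 0.00573 to 0.0259. Per kilobase, *bcd* went from above 58.9% of all genes tested in fed AFCs and 52.9% in starved AFCs to above 82.3% in fed SFCs.

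The *bcd* gene lies on the minus strand of chromosome arm 3R from 6755842 to 6759466 (BDGP6.54) and shares no exon base with another annotated gene. It has 5 annotated transcripts, among which reads were divided by the quantifier's estimate. *bcd-RA*, the shortest at 1479 bases with a coding length of 447, took the most reads in 8 of 9 libraries, while *bcd-RD*, with 2499 bases and a coding length of 1467, took 50.1% in starved AFC 2.

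*bcd-RA* was estimated at 10.97, 33.1 and 17.1 CPM in fed AFCs, 21.0, 12.02 and 8.32 in starved AFCs and 79.2, 73.3 and 57.4 in fed SFCs. The groups were separate for this transcript as for the gene. *bcd-RD* was at 9.05, 2.11 and 2.42 CPM in fed AFCs and at 19.5, 1.18 and 19.3 in fed SFCs, so its SFC values lay on both sides of the AFC values. The estimates for single transcripts had no test.

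**Figure D3:**
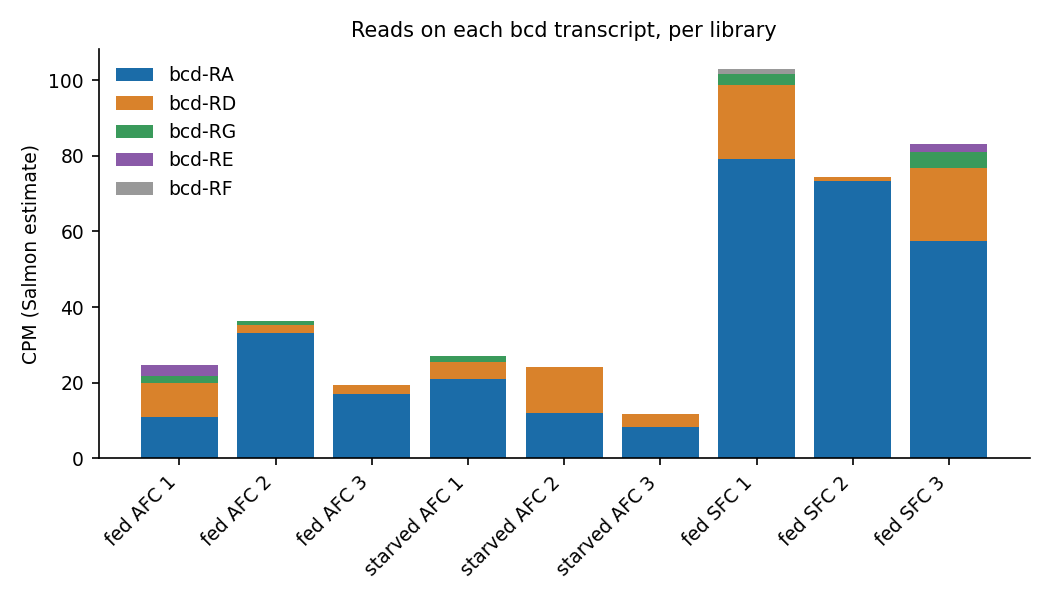
Estimated CPM on each of the 5 *bcd* transcripts, stacked per library, from 0. The bars of the 3 fed SFC libraries reach 74.4 to 103 CPM and those of the 6 AFC libraries 11.7 to 36.4 CPM, and *bcd-RA* is the main part of every bar except in starved AFC 2, where *bcd-RD* is level with it, and fed AFC 1, where it holds 44.4%.

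The other 4 maternal determinants had estimates on the same side as *bcd* in both SFC comparisons, but none passed the threshold in edgeR. The group's median log2 fold change was 0.63 in fed SFCs against fed AFCs, -0.36 in starved against fed AFCs and 0.97 in fed SFCs against starved AFCs. All 5 genes were positive in the SFC comparisons and all 5 negative under starvation, with 1 called by edgeR in each SFC comparison and 0 in the starved one. Of all genes, 44.1% were positive in fed SFCs against fed AFCs, 41.1% in starved against fed AFCs and 48.9% in fed SFCs against starved AFCs. In the same order, edgeR called 2.99%, 0.221% and 2.22% of all genes. DESeq2 called 3 of the 5 in fed SFCs against starved AFCs, beside 8.21% of all genes. Summed over the 5 genes, levels were 749 to 1465 CPM in fed and 667 to 1003 in starved AFCs, and 1255 to 2168 in fed SFCs, so that fed AFC 2 lay within the SFC range.

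*osk* builds the germ plasm at the posterior pole. It was read at 367, 730.1 and 428 CPM in fed AFCs, 534, 453 and 331 in starved AFCs and 1279, 614 and 830.1 in fed SFCs. Fed AFC 2 was above fed SFC 2, while all SFC libraries were above all starved libraries. The log2 fold change in fed SFCs against fed AFCs was 0.84 (SE 0.35, edgeR adjusted p = 0.213), and against starved AFCs it was 1.05 (edgeR adjusted p = 0.148). DESeq2 called the latter (adjusted p = 0.0159).

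*nanos* encodes a translational repressor of posterior patterning and germ cell fate. Its level was 78.4, 136 and 84.3 CPM in fed AFCs, 80.6, 102 and 52.9 in starved AFCs and 184, 119.8 and 157 in fed SFCs. As for *osk*, fed AFC 2 was above fed SFC 2 in CPM, and SFCs did not overlap starved AFCs. Per kilobase, the *nanos* SFC libraries, at 86.0, 62.8 and 77.3, all lay above the highest AFC library, fed AFC 2, at 58.7. For *osk*, fed AFC 2 stayed above fed SFC 2 per kilobase, at 245.6 and 232.6. The log2 fold change of *nanos* in fed SFCs was 0.63 (SE 0.29, edgeR adjusted p = 0.263) against fed and 0.97 (SE 0.30, edgeR adjusted p = 0.117) against starved AFCs, the latter called by DESeq2 (adjusted p = 0.0221).

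*pgc* stood at 268, 543 and 360.3 CPM in fed AFCs, 345, 298 and 265 in starved AFCs and 583, 425 and 383 in fed SFCs. Fed AFC 2 again fell inside the SFC range, and starved AFCs were below all SFC libraries (log2 fold change 0.62, edgeR adjusted p = 0.290). *grk*, the TGF-alpha-like ligand by which the oocyte signals to follicle cells, was at 11.8, 20.1 and 14.4 CPM in fed AFCs, 15.9, 9.71 and 6.86 in starved AFCs and 17.8, 21.3 and 12.4 in fed SFCs. The groups overlapped in each comparison, and the interval for fed SFCs against fed AFCs ran from -0.66 to 0.97 on the log2 scale.

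**Figure D4:**
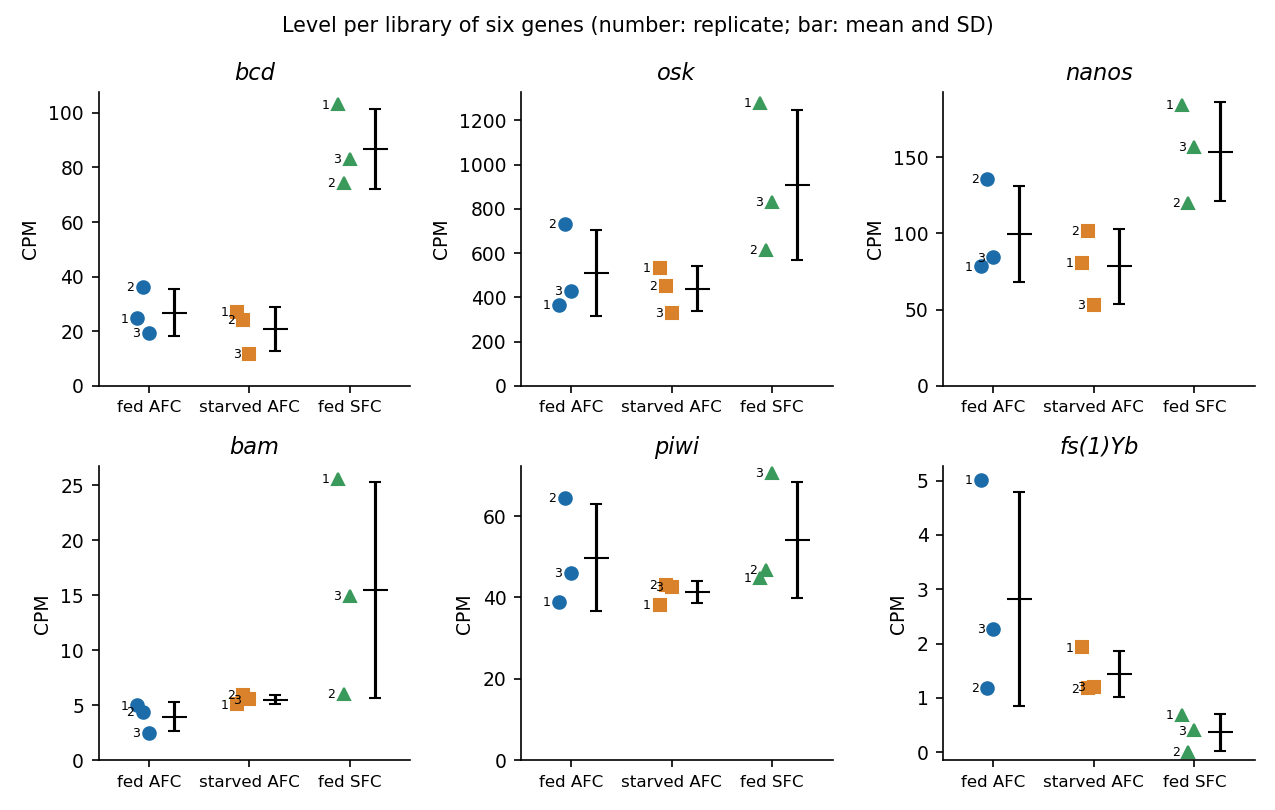
CPM per library of *bcd*, *osk*, *nanos*, *bam*, *piwi* and *fs(1)Yb* in fed AFC, starved AFC and fed SFC libraries, with the replicate number beside each point and the mean and SD (n = 3) beside each group. For *bcd* the SFC points at 74.4 to 103 CPM are clear of the AFC points, for *osk* and *nanos* fed AFC 2 lies within the SFC range, and *fs(1)Yb* is lowest in SFCs, at 0 to 0.689 CPM.

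Among the 8 nuage and ping-pong genes 0 were called in any comparison by edgeR. Of all genes, edgeR called 2.99% in fed SFCs against fed AFCs, 0.221% in starved against fed AFCs and 2.22% in fed SFCs against starved AFCs. DESeq2 called *qin* alone, in fed SFCs against starved AFCs, where it called 8.21% of all genes. At an unadjusted p below 0.05, 1 was higher in fed SFCs against fed AFCs, 1 lower with starvation and 3 higher in fed SFCs against starved AFCs, where 9.06%, 2.92% and 9.21% of all genes were so in the same directions. Their median log2 fold change was 0.32 in fed SFCs against fed AFCs, -0.08 in starved against fed AFCs and 0.49 in fed SFCs against starved AFCs. *vas* encodes the DEAD-box helicase Vasa, the most used marker of germ cells in the fly. It was at 96.8, 115.1 and 85.3 CPM in fed AFCs, 87.4, 100.1 and 96.2 in starved AFCs and 147, 103 and 177 in fed SFCs. Fed SFC 2 lay within the fed AFC range, and the change against fed AFCs was 0.52 on the log2 scale (95% interval 0.02 to 1.03, edgeR adjusted p = 0.240). *vas* shares exon bases with *solo* on the same strand, so part of its reads can belong to that gene.

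*aub*, the Piwi-family protein that carries most antisense piRNAs in the germline, had nearly equal means of 61.0, 62.1 and 61.9 CPM. Its level was 48.6, 73.99 and 60.5 CPM in fed AFCs, 69.7, 65.7 and 50.8 in starved AFCs and 73.1, 57.3 and 55.2 in fed SFCs. All groups overlapped, at a log2 fold change of 0.02 in fed SFCs (95% interval -0.48 to 0.52) and 0.03 in starved AFCs (95% interval -0.47 to 0.52) against fed AFCs.

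*AGO3*, the ping-pong partner of Aub, was at 50.2, 114.95 and 69.3 CPM in fed AFCs, 45.3, 40.6 and 52.8 in starved AFCs and 50.1, 67.0 and 67.5 in fed SFCs. Starved AFC 3 was above fed AFC 1, and fed AFC 2 was the highest library by far. The log2 fold change with starvation was -0.76 (SE 0.29, unadjusted p = 0.0211, edgeR adjusted p = 0.826).

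*tud*, the founding member of the Tudor-domain family that binds methylated Piwi proteins, was at 48.1, 52.6 and 41.3 CPM in fed AFCs and 59.4, 65.3 and 79.7 in fed SFCs. These groups did not overlap, although the change of 0.53 on the log2 scale did not pass (edgeR adjusted p = 0.326), and starved AFCs spread on both sides at 48.1, 62.8 and 26.9 CPM. *qin*, an E3-ligase-like Tudor protein that keeps ping-pong between Aub and AGO3, had few reads, at 9.83, 7.002 and 2.88 CPM in fed AFCs, 3.36, 4.16 and 2.25 in starved AFCs and 5.54, 18.2 and 13.1 in fed SFCs. Its SFC libraries were all above the starved ones (log2 fold change 1.91, SE 0.57, edgeR adjusted p = 0.112, DESeq2 adjusted p = 0.0203) and overlapped the fed ones.

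The helicase gene *spn-E* ranged from 19.4 to 42.6 CPM over the 9 libraries, and its SFC libraries were above the starved ones at a log2 fold change of 0.57 (edgeR adjusted p = 0.249). *krimp*, which brings Aub and AGO3 together, ranged from 31.96 to 59.3 CPM. *tej*, a Tudor-domain gene that helps to assemble the nuage, ranged from 21.4 to 38.0 CPM. Neither of these last genes had groups that were separate in any comparison.

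The Rhino complex was the least read group. *rhi*, whose heterochromatin-binding protein marks germline piRNA clusters, was at 11.9, 25.9 and 17.3 CPM in fed AFCs, 13.2, 14.6 and 16.0 in starved AFCs and 19.7, 11.2 and 20.1 in fed SFCs. *cuff*, which protects cluster transcripts from processing as ordinary mRNA, stayed between 1.99 and 4.91 CPM. Both had groups that overlapped throughout, and 0 of the 3 genes were called in any comparison by edgeR or DESeq2, with 0 at an unadjusted p below 0.05. In fed SFCs against fed AFCs, starved against fed AFCs and fed SFCs against starved AFCs, edgeR called 2.99%, 0.221% and 2.22% of all genes. In the same order DESeq2 called 9.79%, 0.902% and 8.21%, and 19.7%, 5.02% and 17.9% had an unadjusted p below 0.05. With 3 genes, counts of 0 are near these shares.

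*del*, the adaptor that joins Rhino to the transcription machinery, was at 31.4, 25.0 and 18.8 CPM in fed AFCs, 15.8, 33.7 and 32.1 in starved AFCs and 24.3, 22.3 and 80.9 in fed SFCs. Fed SFC 3 was far above the rest, and without it the log2 fold change against fed AFCs went from 0.76 to -0.10. *del* shares exon bases with *pths* on the other strand. The library kit does not mark strand, so reads of such overlapping stretches cannot be told apart.

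The 5 somatic piRNA factors had a median log2 fold change of 0.12 in fed SFCs against fed AFCs, 0.02 in starved against fed AFCs and 0.07 in fed SFCs against starved AFCs, and 0 were called by edgeR or DESeq2. In the same order, edgeR called 2.99%, 0.221% and 2.22% of all genes and DESeq2 9.79%, 0.902% and 8.21%. Only *fs(1)Yb* had an unadjusted p below 0.05, in fed SFCs against fed AFCs, where 19.7% of all genes did. *piwi*, the nuclear Piwi protein of germ and follicle cells, was at 39.0, 64.4 and 46.1 CPM in fed AFCs, 38.2, 43.1 and 42.5 in starved AFCs and 44.8, 46.8 and 70.6 in fed SFCs. SFCs were all above starved AFCs, by 0.39 on the log2 scale (95% interval -0.16 to 0.94, edgeR adjusted p = 0.451), and overlapped fed AFCs.

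*armi*, the helicase that hands piRNA precursors to Zucchini, was at 45.8, 83.9 and 73.5 CPM in fed AFCs, 81.4, 73.5 and 70.1 in starved AFCs and 76.9, 78.0 and 80.6 in fed SFCs. *zuc*, the endonuclease that cuts those precursors, ranged from 6.86 to 13.2 CPM, and *vret*, a Tudor-domain protein needed for piRNA production in both cell kinds, from 18.2 to 29.5 CPM. The log2 fold changes of these 3 genes lay between 0.01 and 0.21 in fed SFCs against fed AFCs, and all their groups overlapped.

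*fs(1)Yb* was the exception in this group. It was at 5.02, 1.18 and 2.27 CPM in fed AFCs, 1.93, 1.17 and 1.20 in starved AFCs and 0.689, 0 and 0.399 in fed SFCs, from 247, 46 and 71 reads, 73, 49 and 47 reads, and 40, 0 and 19 reads. All SFC libraries lay below all AFC libraries. The log2 fold change against fed AFCs was -2.92, with a wide 95% interval of -5.79 to -0.06 (edgeR adjusted p = 0.245), and the change with starvation was -0.98 (edgeR adjusted p = 0.982). This gene rested on few reads.

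The 10 genes of RNA binding, transport and germ cell development had a median log2 fold change of 0.36 in fed SFCs against fed AFCs, -0.07 in starved against fed AFCs and 0.44 in fed SFCs against starved AFCs, with 0 called by edgeR. In the same order, edgeR called 2.99%, 0.221% and 2.22% of all genes. DESeq2 called *bam* in the comparison with fed AFCs and *stau* in that with starved AFCs, beside 9.79% and 8.21% of all genes. At an unadjusted p below 0.05, 2 were higher in fed SFCs against fed AFCs (*bam*, *stau*), 0 passed it with starvation and 3 were higher in fed SFCs against starved AFCs (*orb*, *bam*, *stau*), beside 9.06% and 9.21% of all genes higher in the SFC comparisons and 5.02% in either direction with starvation. *bam*, which switches stem cell daughters to differentiation, was read at 4.98, 4.41 and 2.496 CPM in fed AFCs, 5.07, 5.91 and 5.53 in starved AFCs and 25.6, 6.004 and 14.9 in fed SFCs. The SFC libraries were above all others, fed SFC 2 by very little, and starved AFCs were also above fed AFCs without overlap. The log2 fold change in fed SFCs against fed AFCs was 1.97 (SE 0.52, 95% interval 0.84 to 3.09), just short of the threshold (edgeR adjusted p = 0.0649). It passed without fed SFC 2 (edgeR adjusted p = 0.0125) and with DESeq2 (adjusted p = 0.00598). *bam* overlaps exon bases of *CG11854* on the other strand.

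*stau*, the double-stranded RNA-binding protein that anchors *bcd* and *osk* mRNA, was at 44.2, 53.2 and 42.1 CPM in fed AFCs, 32.9, 44.7 and 44.7 in starved AFCs and 50.5, 82.7 and 81.1 in fed SFCs. Fed SFC 1 lay below fed AFC 2, and the change was 0.62 against fed AFCs (SE 0.24, edgeR adjusted p = 0.193) and 0.81 against starved AFCs (edgeR adjusted p = 0.115) on the log2 scale. The latter passed with DESeq2 (adjusted p = 0.0338) and without fed SFC 1 (edgeR adjusted p = 0.0373). By transcript, *stau-RA* took 57.7% and 47.7% of the gene's estimated reads in fed SFC 2 and 3, 12.9% in fed SFC 1 and 1.91% to 38.3% in the 6 AFC libraries.

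*exu* and *swa* act, like *stau*, in the localization of *bcd* mRNA. *exu* was at 250.0, 436 and 290.0 CPM in fed AFCs, 388, 343 and 341 in starved AFCs and 286, 206 and 321 in fed SFCs, so SFCs were below starved AFCs in every library (log2 fold change -0.40, edgeR adjusted p = 0.470) and overlapped fed AFCs. *swa* was within 138 to 141 CPM in fed AFCs and spread to 204.9, 229 and 140.3 in starved AFCs and 256, 129 and 199 in fed SFCs. Neither passed in any comparison.

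*orb*, the CPEB protein that activates translation of *osk* and *grk*, was at 48.3, 120.0 and 78.7 CPM in fed AFCs, 55.3, 67.5 and 35.1 in starved AFCs and 76.3, 88.5 and 126 in fed SFCs. SFCs were above starved AFCs without overlap, at a log2 fold change of 0.88 (edgeR adjusted p = 0.202). *me31B* was at 679.5, 1441 and 899 CPM in fed AFCs, 751, 696 and 913 in starved AFCs and 887, 910.0 and 931 in fed SFCs. All starved and SFC values lay inside the fed range. *BicD* and *egl*, the adaptors that load mRNA on dynein, ranged from 55.2 to 103.8 and from 26.05 to 50.8 CPM and overlapped in all comparisons.

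*otu*, a deubiquitinase of germ cell development, and *pum*, the partner of Nanos in translational repression, were each high in a single library. *otu* was at 96.8, 83.3 and 62.2 CPM in fed AFCs, 51.4, 93.9 and 84.8 in starved AFCs and 74.6, 71.1 and 277 in fed SFCs. Without fed SFC 3 its log2 fold change against fed AFCs went from 0.80 to -0.14. *pum* was at 42.3, 62.8 and 115.1 CPM in fed SFCs against 36.2 to 70.7 in the 6 AFC libraries, and its log2 fold change went from 0.69 to 0.21 without fed SFC 3.

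Replicates differed along the same lines for many of the genes. Among the fed AFC libraries, fed AFC 2 was the highest for 25 of the 31 genes (80.6%), against 34.8% of all genes tested. Fed AFC 1 was the lowest for 19 of 31 (61.3%), against 41.0% of all genes. In fed SFCs, SFC 3 was the highest for 15 of 31 (48.4%, against 31.4% of all genes) and SFC 2 the lowest for 15 of 31 (48.4%, against 38.5%). The summed level of the 16 nuage, Rhino and maternal genes was 1126 to 2009 CPM in fed and 1058 to 1370 in starved AFCs, and 1713 to 2661 in fed SFCs, with fed AFC 2 the only AFC library to reach the SFC range.

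**Figure D5:**
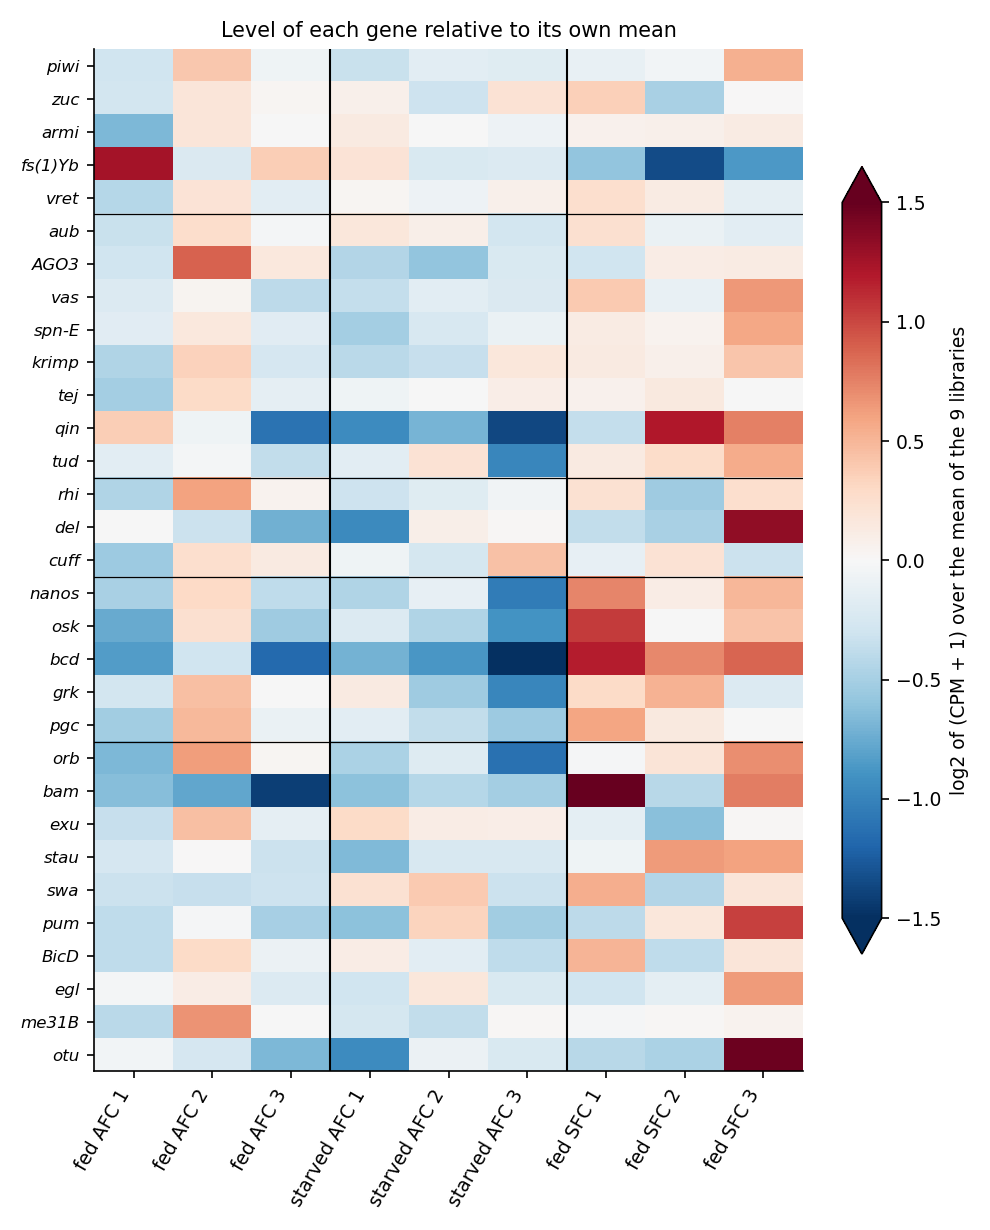
Level of each gene in each library relative to the mean of that gene over the 9 libraries, as log2 of CPM plus 1, with genes in rows by role and libraries in columns; red is above and blue below the mean, and colours saturate at 1.5. The *bcd* row is red in the 3 SFC columns only, fed AFC 2 is the reddest AFC column over most rows, and *otu* and *del* are strongly red in fed SFC 3 alone.

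A further 35 genes of the same pathways were counted. Of 14 other piRNA factors also known in ovarian somatic cells, 6 other germline piRNA factors and 15 other germline and maternal genes, 0 were called by edgeR in any of the 3 comparisons, at background rates of 2.99%, 0.221% and 2.22%. At an unadjusted p below 0.05, 5 of the 35 were higher and 1 lower in fed SFCs against fed AFCs, 1 higher and 1 lower in starved against fed AFCs, and 6 higher and 1 lower in fed SFCs against starved AFCs, beside 19.7%, 5.02% and 17.9% of all genes in either direction. DESeq2 called *sov*, *squ* and *Boot* in fed SFCs against fed AFCs (all higher), none with starvation, and *SoYb*, *wde* and *smg* (higher) and *egg* (lower) in fed SFCs against starved AFCs, genes that are named here after their values were seen. The DESeq2 rates over all genes were 9.79%, 0.902% and 8.21%. The median log2 fold change of the 35 was 0.13, -0.05 and 0.32.

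The 31 genes lie on 2L (8 genes), 2R (9), 3L (2), 3R (9) and X (3). *piwi* (2L from 10982205 to 10987420, BDGP6.54) and *aub* (2L from 10997819 to 11001476) are near neighbours on the minus strand. Of the 31, 14, among them *piwi*, *aub*, *osk*, *nanos*, *pgc* and *grk*, share exon bases with a gene on the other strand, 4 with a gene on the same strand, and 14 with none. Of 18 genes with several annotated transcripts, 13 had the same leading transcript in all 9 libraries. The other 5 were *tud*, *del*, *bcd*, *stau* and *pum*. For *tud*, 8 of 9 libraries had the whole estimate on 1 or the other of a pair of transcripts of 8830 and 8821 bases, and fed SFC 3 had 89.1% on the longer.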

How the data were processed

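The 9 TRAP-seq libraries fall into 3 groups of 3. The authors quantified 75-base single-end reads of poly(A) libraries with Salmon 1.1.0 against the BDGP6.32 transcriptome, and the submitters' processing notes also name bcl2fastq 2.2 and cutadapt. The deposited estimated counts per transcript were summed per gene through the BDGP6.54 annotation (30179 of 30215 transcripts matched) and rounded. Deposited effective lengths gave levels per kilobase, and the TPM that the authors deposited served as an alternative for levels. Genes passing filterByExpr (minimum count 10) were scaled by TMM and tested with edgeR 4.0.16 (R 4.3.3) by the quasi-likelihood test in 1 fit over the 9 libraries with a mean per group, with Benjamini-Hochberg adjustment over all genes tested and a threshold of 0.05. Means are given with SD over 3 libraries, log2 fold changes with the SE and 95% interval of the fit.

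Alternatives were DESeq2 1.42.0 (the study's tool), limma-voom (limma 3.58.1), other filters, scalings and thresholds, length offsets, the replicate number as a block, only the groups compared, and libraries left out. The listed genes and the gene and marker lists were chosen with earlier results of these data known, so no test over a list was made. All listed genes are named, and other lists are counted, with single genes named where a test called them. Groups were taken from the sample labels. No sequence is shown, and scripts were tested on simulated data.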

Additional observations from a re-analysis of the deposited data

How the results depend on the processing

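Over the 9 libraries left out in turn, the genes called ranged from 85 to 487 in fed SFCs against fed AFCs (325 with all libraries), from 8 to 23 in starved against fed AFCs (24) and from 111 to 383 in fed SFCs against starved AFCs (241). Of the 31 listed genes, 0 to 2, 0 to 0 and 1 to 2 were called, and of the 35 other pathway genes 0 to 1, 0 to 0 and 0 to 1. The log2 fold change of *bcd* ranged from 1.54 to 2.02 against fed and from 1.77 to 2.29 against starved AFCs. With fed AFC 1 and fed SFC 2 left out together, that of *bcd* against fed AFCs was 1.73 (edgeR adjusted p = 0.0501), 2 listed genes were called against starved AFCs and 1 of the other genes against fed AFCs. DESeq2 called 1064, 98 and 892 genes (9.79%, 0.902% and 8.21% of those tested), of the listed genes 2 against fed and 5 against starved AFCs in SFCs, and of the others 3 and 4. An adjusted p of 0.01 left 87, 7 and 62 genes, and 0 listed genes in fed SFCs against fed AFCs. Without a filter 2 listed genes and 1 other were called there, with limma-voom 1 other, and a fit of only fed and starved AFCs called 15 genes between them. Libraries of the same replicate number were not treated as pairs in the main fit. Of 9 same-numbered pairs, 2 correlated above 0.1 (-0.53 to 0.39), and 3 of 9 libraries correlated best with their own number. With 3 libraries a group, these correlations cannot decide whether same-numbered libraries shared a batch. With the number as a block, 186, 27 and 163 genes were called. *bcd* then had log2 fold changes of 1.74 and 2.14 (edgeR adjusted p = 0.0159 and 0.00644). Of 1767 values of single genes under the alternatives, 1754 kept their side of the threshold, 11 passed it newly and 2, both of *bcd*, no longer passed. In deposited TPM, scaled to another total, the median level of the listed genes was 7.60 in fed and 7.94 in starved AFCs and 10.2 in fed SFCs. The order of fed and starved AFCs was thus the reverse of that in CPM per kilobase (15.9 and 13.8). Signs were compared only for values past the threshold. The cause of these differences was not tested. With 3 libraries a group, changes of genes with few reads, such as *fs(1)Yb* and *qin*, had wide intervals.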
